A study of Aspergillus nidulans with 6 samples.

Results

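The genes described here are 10 genes of Aspergillus nidulans, a filamentous fungus, that make or use ethanol and its products, out of 10983 features in the count files. They were taken by locus number: the 5 genes of the alc cluster on chromosome VII, which are alcS (AN8981), alcM (AN8980), alcA (AN8979), alcR (AN8978) and alcO (AN8977), and the 5 unlinked genes aldA (AN0554, chromosome VIII), facA (AN5626, chromosome V), pdcA (AN4888, chromosome III), alcC (AN2286, chromosome VII, far from the cluster) and alcB (AN3741, chromosome II). All 10 were present in every file, and none overlapped another feature. Polyadenylated RNA was sequenced from 3 libraries of strain LO1362 with genotype mcrA+ (WT) and 3 of strain LO8158 with genotype mcrA- (labelled mcrA-deleted), and read counts per feature were compared between them. Both strains grew as liquid cultures for 1 day at 37 degrees in 150 ml of glucose minimal medium from 1000000 spores, with uridine, uracil, pyridoxine and riboflavin added. The labels describe the mcrA-deleted strain as carrying a mutation that activates the production of secondary metabolites. Each genotype is 1 strain, so the deletion cannot be told apart from any other difference between the strains. The labels call the libraries replicates without naming separate cultures, so p-values below cover only the spread between libraries, and this may be technical.

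Ethanol is used as a carbon source by oxidation to acetaldehyde and then to acetate, which is joined to coenzyme A. In A. nidulans the first of these steps is carried out by alcohol dehydrogenase I (alcA), the next by aldehyde dehydrogenase (aldA) and the last by acetyl-CoA synthetase (facA). The zinc-cluster activator AlcR, encoded by alcR, turns on alcA, aldA and its own gene when an inducer such as ethanol or acetaldehyde is present, and the repressor CreA keeps alcR and alcA low on glucose. Fermentation runs the other way: pyruvate decarboxylase (pdcA) turns pyruvate into acetaldehyde, and an alcohol dehydrogenase reduces it to ethanol. The gene alcC encodes alcohol dehydrogenase III, which has been tied to growth with little oxygen, and alcB encodes alcohol dehydrogenase II.

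Total counts lay between 3374534 (mcrA-deleted replicate 1) and 6051839 (WT replicate 2). AN8694, known from background as the mcrA locus, had a level of 152 ± 6.21 CPM (counts per 1000000 counts) in the WT libraries against 72.7 ± 14.6 CPM in the other group (SD, n = 3 each). It kept 280, 422 and 273 counts in the libraries labelled mcrA-deleted, and why counts remained was not tested. No source used here gives the deleted part, so the groups are called by their labels throughout and directions rest on them. Over all 7852 features with enough counts to be tested, 1265 were higher (16.1%) and 1078 lower (13.7%) in the libraries labelled mcrA-deleted by the quasi-likelihood test of edgeR with Benjamini-Hochberg adjustment, called at an adjusted p under 0.05, together 29.8%. With library size alone in place of trimmed-mean (TMM) scaling these counts were 1660 and 639, and the median log2 fold change of all features moved by 0.173, so directions below are relative to TMM. WT replicate 3 differed from the other WT libraries in several of the genes below, and values without it are given there. Mitochondrial features took 1.06% of the counts of mcrA-deleted replicate 1 and at most 0.159% elsewhere.

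In the alc cluster the main enzyme gene alcA and the regulator gene alcR were called higher in the libraries labelled mcrA-deleted. The call of alcA held in all 14 other fits and that of alcR in 9. The abundant fermentation genes pdcA and alcC had levels that overlapped between the genotypes. Whether the cluster genes changed more than the unlinked genes was not tested. Of the 10 genes, 8 could be tested; alcR, alcA, alcS and alcB rose, 0 fell, and aldA, facA, pdcA and alcC did not pass. In all features 16.1% were called higher, as given above. With no count filter all 10 were tested, and again 4 were called higher and 0 lower. The median log2 fold change of the 8 tested genes was 0.80, beside 0.00214 over all tested features. The groups did not overlap in CPM in 5 of the 8 tested genes: alcR, alcA, aldA, alcS and alcB. Over all tested features this held for 48.9%. Of the untested genes the groups were separate in CPM for alcM, at very low counts. Because alcS met the count minimum through the libraries labelled mcrA-deleted, the numbers and the median of the tested genes lean towards a rise. At a mean count of at least 50, where alcS was not tested, 4 of 7 genes were called higher, with aldA among them. Leaving out 1 library at a time changed the number called to 1 without WT replicate 1, WT replicate 2, mcrA-deleted replicate 2 or mcrA-deleted replicate 3 (alcA each time), to 3 without mcrA-deleted replicate 1 and to 5 without WT replicate 3.

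**Figure D1:**
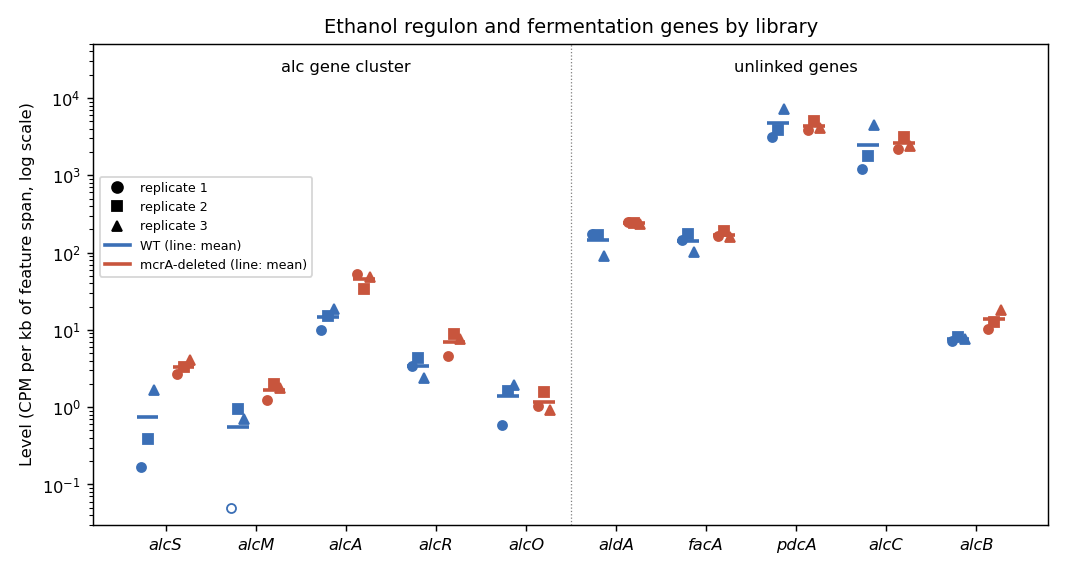
Level of each gene in each library, in CPM per kb of the feature's span on a log axis; symbols are single libraries, colours the genotypes and short lines the group means, and the open circle marks a library with 0 counts, drawn at the foot of the axis. The pdcA and alcC points stand far above all others, and for alcA all 3 mcrA-deleted points (33.7 to 53.1) lie above all 3 WT points (10.1 to 18.6).

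The 10 genes spanned a wide range of levels on glucose. Per kb of feature span, which allows genes to be compared, the WT means ran in the order pdcA (4741 ± 2165 CPM per kb), alcC (2475 ± 1734), aldA (144 ± 45.7), facA (141 ± 36.4), alcA (14.5 ± 4.23), alcB (7.62 ± 0.439), alcR (3.41 ± 0.994), alcO (1.39 ± 0.713), alcS (0.745 ± 0.820) and alcM (0.553 ± 0.496; SD, n = 3 for each). Neighbours in this order whose ranges over the WT libraries overlapped were pdcA and alcC (although pdcA was the higher in every library), aldA and facA, and alcO, alcS and alcM. The order in the libraries labelled mcrA-deleted was the same down to alcR (7.02 ± 2.16 CPM per kb), followed by alcS (3.36 ± 0.732), alcM (1.67 ± 0.380) and alcO (1.17 ± 0.350). Among all 10983 features, pdcA ranked 18, 11 and 10 by level per kb in the WT libraries and 8, 7 and 5 in the libraries labelled mcrA-deleted. These ranks also depend on the other abundant features, and the levels of pdcA overlapped between the genotypes, so the ranks do not show a rise of pdcA. The rank of alcA was 5234, 4428 and 3864 in the WT libraries and 1686, 2572 and 1844 in the libraries labelled mcrA-deleted. The most abundant gene of the group therefore stood 258 to 388 times above alcA per kb in WT and 72.1 to 149 times above it in the libraries labelled mcrA-deleted. The ratio did not overlap between the genotypes, while the levels of pdcA did, so the ratio does not by itself show a change of pdcA. This ratio and the other ratios between genes below were chosen after the levels were seen and carry no test.

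The regulator gene alcR (chromosome VII, 234657 to 237182, plus strand) had 40, 67 and 25 reads counted in WT (replicates 1 to 3, here and below) and 41, 115 and 93 in the libraries labelled mcrA-deleted. In scaled values these were 8.72, 11.1 and 6.06 CPM in WT and 11.7, 22.4 and 19.0 CPM in the libraries labelled mcrA-deleted. The groups were separate but close, with mcrA-deleted replicate 1 just above WT replicate 2. The gene rose by 1.04 on the log2 scale (SE 0.317, 95% interval 0.295 to 1.78; edgeR adjusted p = 0.0447). Over the 6 libraries the exact permutation test, two-sided, had p = 0.1, the smallest that 3 against 3 allow, and the same value was found for alcA, aldA, alcM, alcS and alcB. The call of alcR was lost in 5 of 6 fits with a library left out: without WT replicate 1 (adjusted p = 0.102), 2 (0.0588) or 3 (0.0727), and without mcrA-deleted replicate 2 (0.149) or 3 (0.115), with log2 fold changes between 0.83 and 1.26.

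The enzyme gene alcA (chromosome VII, 230913 to 232270, plus strand) lies next to alcR on the same strand and ends 2386 bases before it. It had 63, 123 and 104 counts in the WT libraries and 252, 235 and 322 counts in the libraries labelled mcrA-deleted. Its level went from 13.7, 20.3 and 25.2 CPM (19.8 ± 5.75) to 72.1, 45.8 and 65.9 CPM (61.3 ± 13.7; SD, n = 3 each), so that every library labelled mcrA-deleted lay above every WT library. The rise was 1.63 on the log2 scale (SE 0.264, 95% interval 1.01 to 2.25; edgeR adjusted p = 0.00507). The call held in each of the 14 other fits, with log2 fold changes between 1.42 and 1.83. Of the 8 tested genes, alcA was the only one called in all 14.

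The levels of alcA and alcR did not follow each other closely among the libraries labelled mcrA-deleted. Per kb, alcA stood 11.4 times above alcR in mcrA-deleted replicate 1, 3.80 times in replicate 2 and 6.44 times in replicate 3. In WT replicates 1 to 3 the ratio was 2.93, 3.42 and 7.74. The ranges of the genotypes overlapped. The library with the highest alcA level, mcrA-deleted replicate 1, was the one with the lowest alcR level of its group.

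At the end of the cluster, alcS (chromosome VII, 227577 to 228871, minus strand) encodes a membrane protein of the GPR1/FUN34/YaaH family. It had 1, 3 and 9 counts in WT and 12, 22 and 26 counts in the libraries labelled mcrA-deleted, or 0.965 ± 1.06 and 4.35 ± 0.948 CPM (SD, n = 3 each). WT replicate 3 came close to mcrA-deleted replicate 1, and the other WT libraries were near 0. The gene rose by 2.24 on the log2 scale (SE 0.649, 95% interval 0.723 to 3.76; edgeR adjusted p = 0.0377). It met the count minimum through the libraries labelled mcrA-deleted, so its place among the tested genes already leans towards a rise. Without WT replicate 3 the log2 fold change was 3.47 (adjusted p = 0.00513), and in the other 5 fits with a library left out the call was lost (adjusted p from 0.062 to 0.134).

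The last 2 cluster genes, alcM and alcO, had too few counts to be tested. Between alcS and alcA, alcM (chromosome VII, 229515 to 230204, plus strand) had 0, 4 and 2 counts in WT and 3, 7 and 6 counts in the libraries labelled mcrA-deleted. The ratio of its summed, depth-scaled counts, mcrA-deleted over WT, was 2.91 (exact binomial 95% interval 1.08 to 9.09, which covers counting error only). Downstream of alcR, alcO (chromosome VII, 238444 to 239561, plus strand) had 3, 11 and 9 counts in WT and 4, 9 and 5 counts in the libraries labelled mcrA-deleted, a ratio of 0.855 (0.435 to 1.66). In CPM the groups were separate for alcM (at most 0.661 in WT, at least 0.858 in the libraries labelled mcrA-deleted) and overlapped for alcO. The raw counts of alcM overlapped, so its separation rests on the scaling, and 0.858 CPM stands for only 3 counts.

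Of the unlinked genes of ethanol use, aldA (chromosome VIII, 3188493 to 3190432, plus strand) had 1531, 1973 and 729 counts in WT and 1668, 2429 and 2244 counts in the libraries labelled mcrA-deleted. In scaled values the WT libraries stood at 333.8, 326.1 and 176.6 CPM and the libraries labelled mcrA-deleted at 477, 473.5 and 459.5 CPM. The libraries labelled mcrA-deleted were close together and all above WT, and WT replicate 3 was well below the other 2. The log2 fold change was 0.75 (SE 0.246, 95% interval 0.177 to 1.33; edgeR adjusted p = 0.0548), just short of the threshold. Without WT replicate 3 the value was smaller, 0.51, with less spread, and passed (adjusted p = 0.0285). It also passed with library size alone (adjusted p = 0.0434), a mean count of at least 50 (0.0463), the DESeq2 Wald test (0.0199) and other settings given in the closing section.

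The next enzyme gene, facA (chromosome V, 2169493 to 2172651, minus strand), had 2105, 3355 and 1344 counts in WT and 1827, 3074 and 2428 counts in the libraries labelled mcrA-deleted. Its levels were 458.9, 554.5 and 325.6 CPM in WT and 522.5, 599.2 and 497.2 CPM in the libraries labelled mcrA-deleted, with overlapping groups. The log2 fold change of 0.27 did not pass (SE 0.216, 95% interval -0.231 to 0.778; edgeR adjusted p = 0.37), and the exact two-sided permutation p was 0.3. It was called in 0 of the 14 other fits. Without WT replicate 3 its log2 fold change was 0.09 (edgeR adjusted p = 0.703). The level of aldA per kb was 0.883 to 1.18 times that of facA in WT and 1.29 to 1.51 times in the libraries labelled mcrA-deleted, ranges that did not overlap.

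The fermentation gene pdcA (chromosome III, 658093 to 660277, plus strand) was the most abundant of the 10, with 31544, 51148 and 64998 counts in WT and 29220, 56444 and 44037 counts in the libraries labelled mcrA-deleted. Its levels were 6877, 8453 and 15745 CPM in WT and 8356, 11002 and 9018 CPM in the libraries labelled mcrA-deleted. WT held both the lowest and the highest library. The log2 fold change was -0.13 (SE 0.354, 95% interval -0.959 to 0.697; edgeR adjusted p = 0.807; exact two-sided permutation p = 0.9). Its sign turned with library size alone (0.07) and without WT replicate 3 (0.30, adjusted p = 0.326), so no direction can be given for it.

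The same libraries were high and low for alcC (chromosome VII, 3444977 to 3446661, minus strand), the alcohol dehydrogenase III gene. It had 9394, 17902 and 30976 counts in WT and 13022, 27359 and 19946 counts in the libraries labelled mcrA-deleted, or 2048, 2959 and 7504 CPM against 3724, 5333 and 4084 CPM. The log2 fold change was 0.07 (SE 0.471, 95% interval -1.03 to 1.17; edgeR adjusted p = 0.926; exact two-sided permutation p = 0.8). Without WT replicate 3 the value was 0.81 and passed (adjusted p = 0.0477; 0.0378 to 0.944 over all refits), and without WT replicate 1, WT replicate 2 or mcrA-deleted replicate 2 it was below 0 (-0.26, -0.13 and -0.10), each short of the threshold.

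The alcohol dehydrogenase II gene alcB (chromosome II, 3216063 to 3218083, minus strand) was far less abundant, with 67, 99 and 63 counts in WT and 72, 131 and 181 counts in the libraries labelled mcrA-deleted. The WT libraries lay close together at 14.6, 16.4 and 15.3 CPM, and the libraries labelled mcrA-deleted were higher and more spread, at 20.6, 25.5 and 37.1 CPM. The gene rose by 0.85 on the log2 scale (SE 0.235, 95% interval 0.300 to 1.40; edgeR adjusted p = 0.0323). Its call was lost without WT replicate 1 (adjusted p = 0.0866), WT replicate 2 (0.0798), mcrA-deleted replicate 2 (0.0707) or mcrA-deleted replicate 3 (0.0817), and the log2 fold change fell to 0.58 in the last of these.

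**Figure D2:**
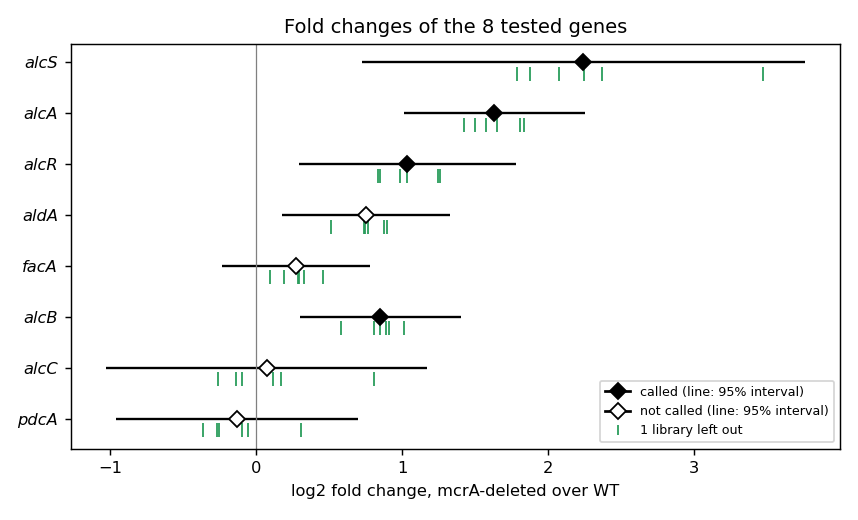
Log2 fold changes (mcrA-deleted over WT) of the 8 tested genes; diamonds are the fit on all 6 libraries, filled where called, lines are 95% intervals and green ticks are fits without 1 library. The ticks of alcA lie between 1.42 and 1.83, while those of alcC and pdcA stand on both sides of 0.

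The 3 alcohol dehydrogenase genes differed widely in level, and whether their changes differed was not tested; the 95% intervals of their log2 fold changes given above overlap. Per kb of span, alcC stood 117 to 240 times above alcA in WT and 41.7 to 93.8 times above it in the libraries labelled mcrA-deleted, without overlap. The levels of alcA itself were separate and those of alcC overlapped, so this ratio does not by itself show a change of alcC. In the libraries labelled mcrA-deleted alcA in turn stood at 45.1 ± 10.1 CPM per kb and alcB at 13.7 ± 4.18 (SD, n = 3 each). The summed level of the 5 alc cluster genes was 23.3, 34.4 and 36.1 CPM in the WT libraries and 89.2, 75.6 and 92.6 CPM in the libraries labelled mcrA-deleted. Between 58.9% and 80.8% of the cluster's counts in each library came from alcA. The summed level of the 5 unlinked genes, mostly pdcA and alcC, was 9732, 12310 and 23770 CPM in WT and 13100, 17430 and 14100 CPM in the libraries labelled mcrA-deleted. These sums were separate between genotypes for the cluster and overlapped for the unlinked genes.

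WT replicate 3 stood apart from WT replicates 1 and 2 in opposite ways for different steps of the pathway. It had the highest level of pdcA and alcC of all 6 libraries and the lowest of aldA, facA and alcR. Per kb, pdcA stood 79.2 times above aldA in this library, against 15.6 to 23.0 times in the other 5. For facA the same ratio was 69.9, against 21.7 to 26.6 in the other 5. For alcA and alcS it was the highest WT library but still below each library labelled mcrA-deleted. No label gives a batch or a culture that would set this library apart.

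**Figure D3:**
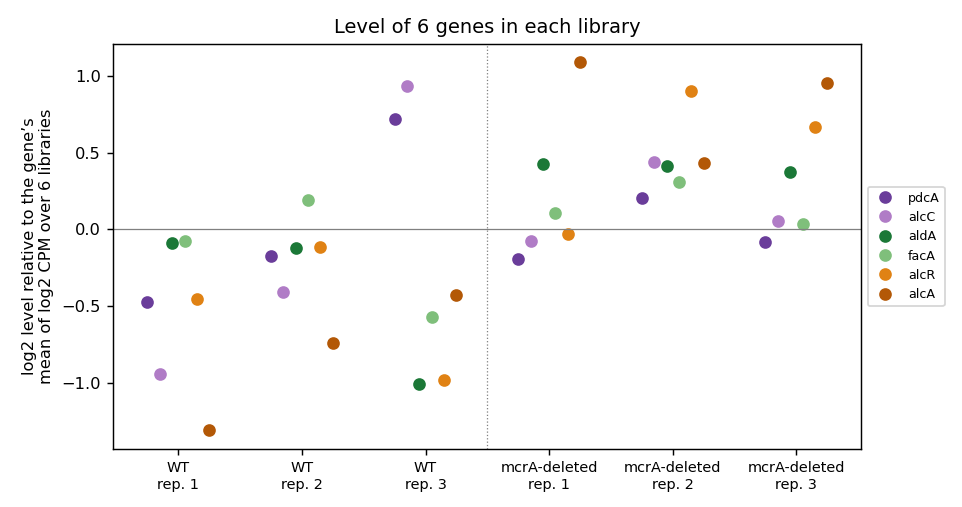
Log2 level of 6 genes in each library, relative to that gene's mean of log2 CPM over the 6 libraries; each point is 1 gene in 1 library. In WT replicate 3 alcC (0.93) and pdcA (0.72) lie above 0, and alcR (-0.98), aldA (-1.01) and facA (-0.57) lie below it.

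The pair pdcA and alcC kept a narrow ratio in the libraries labelled mcrA-deleted, where pdcA stood 1.59 to 1.73 times above alcC per kb. In WT the ratio was 2.59, 2.20 and 1.62 in replicates 1 to 3. Both genes were set beside gpdA (AN8041), the glycolytic glyceraldehyde-3-phosphate dehydrogenase gene, which went from 11321 ± 2971 to 6223 ± 1602 CPM (SD, n = 3 each) without passing the test (log2 fold change -0.86, SE 0.311; edgeR adjusted p = 0.0726; 0.00786 to 0.163 over all refits). Per kb, pdcA stood at 0.587 to 0.868 times gpdA in WT and 0.981 to 1.67 times in the libraries labelled mcrA-deleted. For alcC the ratio to gpdA was 0.227 to 0.536 in WT and 0.567 to 0.981 in the libraries labelled mcrA-deleted. Neither range overlapped between the genotypes. The levels of gpdA itself were separate, at 9525 to 14749 CPM in WT and 4390 to 7355 CPM in the libraries labelled mcrA-deleted. Those of pdcA and alcC overlapped, so the ratios do not by themselves show a change of pdcA or alcC.

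The cluster spans 11985 bases from alcS to alcO, and the features on either side were examined for where differences began and ended. The 5 cluster genes are adjacent, with no other feature between them. Of the 10 features before alcS, 5 were tested, of which 1 was higher and 1 lower, and of the 10 after alcO, 5 were tested, again with 1 higher and 1 lower; over all tested features 29.8% were called. Directly beside alcS, AN8982 (225091 to 226814, plus strand) had 34, 49 and 22 counts in WT and 43, 84 and 156 counts in the libraries labelled mcrA-deleted and rose by 1.54 (SE 0.383; edgeR adjusted p = 0.0226). Its call was lost without WT replicate 1 (adjusted p = 0.0555) or 2 (0.059; 0.00335 to 0.059 over all refits), and its log2 fold change was lowest, 1.04, without mcrA-deleted replicate 3. The next feature, AN8983, had too few counts (4, 3 and 2 in WT; 0, 6 and 15 in the libraries labelled mcrA-deleted). AN8984, named after its counts were seen, also had too few counts to be tested, with 1, 0 and 1 in WT against 7, 20 and 12. Its pooled ratio was 21.3 (exact binomial 95% interval 5.52 to 182, which covers counting error only).

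Directly beside alcO, AN8976 had 0 counts in all 6 libraries, so that no call was possible there; this allows up to 0.654, 0.496 and 0.727 CPM in the WT libraries and 0.858, 0.585 and 0.614 CPM in the libraries labelled mcrA-deleted, taking 3 counts as the limit. The feature after it, AN8975, had 21, 73 and 60 counts in WT and 12, 25 and 20 in the libraries labelled mcrA-deleted (log2 fold change -1.31, SE 0.438; edgeR adjusted p = 0.0582; 0.0132 to 0.192 over all refits). Farther out, AN8972 rose from 109 ± 43.5 to 379 ± 39.6 CPM (1.80, SE 0.277; adjusted p = 0.00414). AN8967, which overlaps AN8968 on the other strand so that their reads may be mixed, fell from 38.4 ± 4.20 to 18.1 ± 5.49 CPM (-1.09, SE 0.242; adjusted p = 0.015). On the alcS side of the cluster, 9 features out, AN8990 fell from 230.3 ± 62.5 to 87.9 ± 32.1 CPM (-1.39, SE 0.308; adjusted p = 0.0147), a call lost without mcrA-deleted replicate 2 (0.0521; 0.000178 to 0.0521 over all refits).

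**Figure D4:**
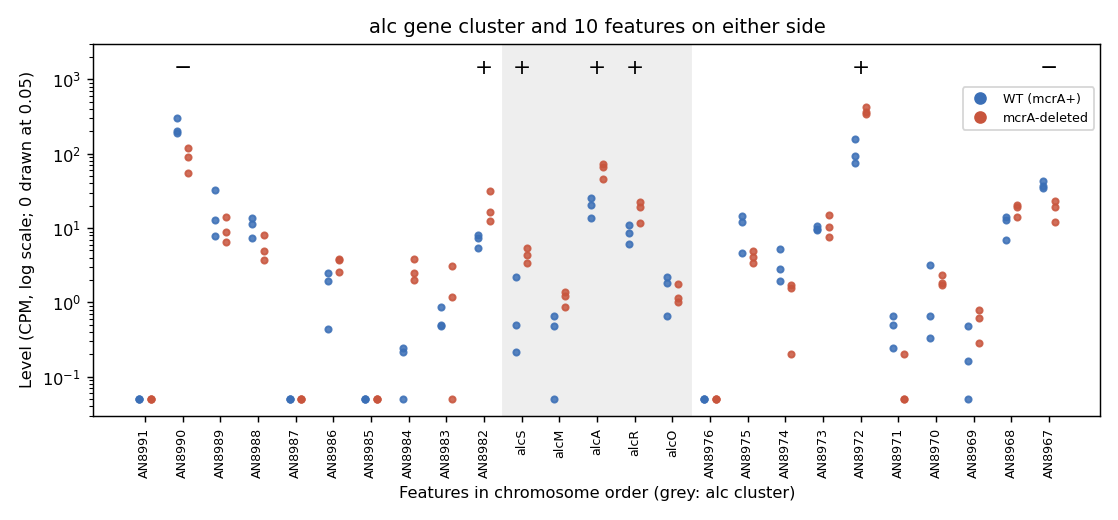
Level (CPM, log axis, 0 drawn at 0.05) of the 5 alc cluster genes (grey) and the 10 features on either side in chromosome order; points are single libraries, and plus and minus signs mark features called higher or lower. Signs of a rise stand over AN8982, alcS, alcA and alcR in a row of 6 features. In this row alcM, between alcS and alcA, and alcO, at the end of the cluster, were not tested and have no sign.

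The genes around the pathway were read from 2 lists drawn up from general knowledge of this fungus; symbols are given where the RefSeq table of assembly ASM1142v1 has one. Of 11 genes of carbon control and acetate use, all tested, 1 rose, 2 fell and 8 did not pass, with a median log2 fold change of -0.15, a share called near the 29.8% of all tested features. The repressor gene creA (AN6195) rose from 225.6, 288.6 and 227.5 CPM in WT to 327.2, 363.9 and 349.8 CPM in the libraries labelled mcrA-deleted (0.49, SE 0.150; edgeR adjusted p = 0.0457). Its groups were separate, but of the 6 fits with a library left out the call held in only 1, that without WT replicate 2 (adjusted p from 0.0721 to 0.145 in the other 5), and was lost with no count filter (0.062). The activator gene of acetate use, facB (AN0689), went from 154 ± 11.9 to 126 ± 2.81 CPM and did not pass (-0.29, SE 0.117; edgeR adjusted p = 0.102); it was named for its role, outside the rule.

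The 2 genes that fell in this list were AN5634 and fbp1 (AN5604), the fructose-1,6-bisphosphatase gene of gluconeogenesis. In level, fbp1 went from 261 ± 65.6 to 132 ± 21.3 CPM (-0.98, SE 0.218; edgeR adjusted p = 0.0147), and lost its call without mcrA-deleted replicate 2 (0.059; 0.000512 to 0.059 over all refits). AN5634 went from 267.7, 108.9 and 106.8 CPM to 79.2, 44.1 and 28.3 CPM (-1.68, SE 0.481; adjusted p = 0.0359), and its call was lost without WT replicate 1 (-1.11, adjusted p = 0.0813), WT replicate 2 (0.0517), mcrA-deleted replicate 2 (0.114) or mcrA-deleted replicate 3 (0.101). The phosphoenolpyruvate carboxykinase gene acuF (AN1918) stood at 411 ± 136 and 535 ± 222 CPM and did not pass (edgeR adjusted p = 0.46), nor did AN6653, which overlaps AN6652, at 275 ± 110.4 and 366 ± 85.1 CPM (0.335). The number called in this list ranged from 0 without mcrA-deleted replicate 2 to 4, all lower, without WT replicate 3.

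Of 6 genes around pyruvate, 3 fell, 0 rose and 3 did not pass, with a median log2 fold change of -0.83; over all tested features 13.7% were called lower. The phosphoglycerate kinase gene pgkA (AN1246) went from 3995 ± 654 to 2298 ± 285 CPM (-0.80, SE 0.215; edgeR adjusted p = 0.0293). The enolase gene AN5746, named aspf22 in RefSeq, went from 3806 ± 194 to 2066 ± 361 CPM (-0.88, SE 0.208; adjusted p = 0.0187). AN5162, which overlaps AN5163, went from 819 ± 71.1 to 435 ± 83.7 CPM (-0.91, SE 0.191; adjusted p = 0.0122), and it was called in all 6 fits with a library left out. Besides gpdA, AN5210 (1194 ± 118 and 827 ± 82.4 CPM; -0.53, edgeR adjusted p = 0.0512, 0.00346 to 0.175 over all refits) and AN4462 (1109.9 ± 353 and 786 ± 145 CPM; -0.50, adjusted p = 0.209) did not pass. Leaving out 1 library gave between 1 gene called (without WT replicate 1, WT replicate 2 or mcrA-deleted replicate 2) and 5 (without WT replicate 3). The call of pgkA held only without WT replicate 3 among these fits, and that of AN5746 was lost without WT replicate 1 or 2 or mcrA-deleted replicate 2.

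The genes whose levels were most like those of 3 of the regulon genes were named by the distance between log2 profiles over the 6 libraries, each centred on its own mean. Nearest to alcR were AN8644 (distance 0.258), AN3152 (0.423) and AN3776 (0.426), which lie on chromosomes III, VI and II. Nearest to alcA were AN4609 (0.385), AN5204 (0.414) and AN6503 (0.437), on chromosomes III, V and I. Nearest to aldA were AN0096 (0.257), AN1050 (0.257) and AN10199 (0.266), on chromosomes VIII, VIII and VII. None of the 9 is one of the 10 genes or one of the 20 features beside the cluster. The distance includes the difference between the genotypes and is a description only.

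Markers of asexual spores and spore-bearing structures were read beside these results, because the libraries are labelled by culture and not by cell type. Of 6 such markers, 4 were tested: brlA (AN0973), the central activator of conidiation, went from 0.344 ± 0.134 to 6.79 ± 4.18 CPM (1, 2 and 2 counts against 12, 28 and 56; 4.24, SE 0.647; edgeR adjusted p = 0.00409), and AN8209 (pksP in RefSeq), a spore pigment synthase gene that overlaps AN8208, rose by 1.27 (SE 0.372; adjusted p = 0.0394). Like alcS, brlA met the count minimum through the group where it is high, so that its test leans towards a rise. The laccase gene yA stood at 13.8 ± 3.19 and 9.34 ± 2.98 CPM and the hydrophobin gene rodA at 1.19 ± 1.91 and 3.64 ± 3.02 CPM; neither passed. For rodA the counts were 0, 1 and 14 in WT and 1, 23 and 30 in the libraries labelled mcrA-deleted. Without WT replicate 3 its log2 fold change was 5 and passed (edgeR adjusted p = 0.0353), in place of 1.79. That was the only 1 of the 6 fits with a library left out in which rodA was called. The untested abaA and wetA stood at 1.52 ± 0.303 and 1.50 ± 0.421 CPM in WT and 3.19 ± 1.26 and 2.41 ± 0.519 CPM in the libraries labelled mcrA-deleted. The summed level of all 6 markers, to which yA gave most in WT, was 17.0 to 25.9 CPM in WT and 25.7 to 43.6 CPM in the libraries labelled mcrA-deleted, with overlapping ranges, and rodA had 0 counts in WT replicate 1. The call of AN8209 was lost without WT replicate 2 (1.07, adjusted p = 0.131), WT replicate 3 (0.0696), mcrA-deleted replicate 1 (0.107) or mcrA-deleted replicate 3 (0.106). The part of these markers in the differences of the alc genes was not tested; in such bulk samples fewer cells of a kind and less RNA per cell cannot be told apart.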

How the data were processed

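RNA was measured in 6 libraries, 3 per genotype, grouped by their titles. The deposited values are raw read counts per feature, per the file headers; the tools named in the submitters' processing notes are CASAVA and HISAT (version 1), and per the labels' protocols the libraries were directional. Not given in the sources used here are the counting tool, its strand setting and the annotation; chromosomes and coordinates are those of the files (A. nidulans FGSC A4). Counts were fitted with edgeR 4.0.16 in R 4.3.3: TMM scaling, filterByExpr (minimum count 10), quasi-likelihood test, two-sided, genotype as the only term, Benjamini-Hochberg adjustment over all 7852 tested features (3131 were left out). CPM used the TMM-scaled sizes of the tested features. SEs were derived from each fold change and F statistic, and 95% intervals from the test's degrees of freedom. Alternatives were 2 scalings, 2 filters, DESeq2 1.42.0, a replicate block, leaving out libraries, and leaving out mitochondrial features. The procedure was tested on simulated data. Feature spans include introns.

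Members and lists were chosen with earlier results of these data known. All members and listed genes were to be named, listed genes of the longer list only if called or among the 4 of highest level, beside the 2 nearest features on each side of the cluster, called features among the 10 on each side, and the 3 genes most like alcR, alcA and aldA. Ratios between genes, and AN8984, were chosen after values were seen. A count of 0 was taken to allow up to 3 counts.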

Additional observations from a re-analysis of the deposited data

How the results depend on the processing

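Features called higher and lower numbered 758 to 1496 and 618 to 1171 when 1 library was left out, and 639 were lower with library size alone. Members called higher numbered 1 to 5 in those fits and 0 were lower in any. The leave-one-out log2 fold changes ran from 0.83 to 1.26 for alcR, 1.42 to 1.83 for alcA, 0.51 to 0.89 for aldA and 0.09 to 0.46 for facA. They ran from 1.78 to 3.47 for alcS, 0.58 to 1.01 for alcB, -0.36 to 0.30 for pdcA and -0.26 to 0.81 for alcC. The log2 fold change of aldA passed the threshold with library size alone (0.90), a mean count of at least 50 (0.80), the DESeq2 Wald test (0.74), the replicate block (0.81) and with both WT replicate 3 and mcrA-deleted replicate 1 left out (0.50); its adjusted p lay between 0.0199 and 0.13 over all refits. That last setting also took alcC to 0.91, past the threshold, and pdcA to 0.39; with library size alone pdcA stood at 0.071. The cause of these changes was not tested. Members called higher numbered 5 with library size alone, with DESeq2 and with the replicate block, and 6 without the pair of libraries. At a mean count of at least 50, alcS was not tested. Same-numbered libraries of the genotypes had correlations of 0.237, -0.082 and 0.174 between their deviations from the group means. Differently numbered libraries had -0.256 to 0.106, so 0.237 and 0.174 lay above all of these. The numbers were not taken to pair the libraries in the main fit, and a shared effect of the replicate number was not tested. Without WT replicate 3 the WT level per kb was 0.276 CPM in place of 0.745 for alcS and 1486 in place of 2475 for alcC. With library size alone aldA stood at 257 CPM per kb in the libraries labelled mcrA-deleted in place of 242. At these depths alcM and alcO, with at most 11 counts in a library, allow no test of modest changes.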
